A study of Mus musculus with 10 samples.

Results

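Transcripts of 9 genes of megakaryocytes and platelets were examined, namely Pf4, Vwf, Thbs1, Itga2b, Gp1bb, Gp9, Cd9, Treml1 and Rab27b, in mouse erythroleukemia (MEL) cells, 9 of the 18194 genes that the array reads with a probe set of their own. MEL cells are a cultured line of erythroid precursors transformed by Friend virus. The members are the 14 probe sets, of 45101 on the array, whose platform annotation gives one of these 9 symbols and no other. A further 2 probe sets list a member together with a second gene and were not counted.

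RNA was measured on 10 Affymetrix arrays. Of these, 8 came from 4 subclones, FBB1.7, FBB1.5, FBB1.10 and FBB1.11, each stably expressing BCL11A with a FLAG and biotin tag, with 2 arrays per subclone. The other 2 came from the parental line. All 5 lines carry BirA, the bacterial biotin ligase that biotinylates the tag, and the labels give no treatment for any of them. Each subclone is 1 clone, so a difference between a subclone and the parental line cannot be told apart from variation among clones. BCL11A is a DNA-binding zinc finger protein best known for silencing fetal globin.

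Megakaryocytes are the large bone marrow cells that shed platelets, and they arise from a progenitor that also gives rise to red cells. GATA1, TAL1 and NFE2 act in both lineages, while FLI1 and RUNX1 are known for favouring the megakaryocyte side. Platelets carry alpha granules filled with proteins such as platelet factor 4, von Willebrand factor and thrombospondin, and surface complexes that bind fibrinogen and von Willebrand factor.

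Upstream sequences of 3 members are shown because each has 1 probe set, and that probe set lay above the table median on all 10 arrays. RefSeq promoter windows of GRCm38.p6, from 250 bases before to 50 bases after the gene start, were matched for 6 of the 9 genes. The window of Pf4 is chr5:90772185-90772484 on the plus strand, that of Itga2b is chr11:102469834-102470133 on the minus strand, and that of Treml1 is chr17:48359666-48359965 on the plus strand. Capitals mark GATAA, which GATA factors recognise, GGAAG, which ETS factors recognise, and TGACCA, which BCL11A is known to bind, each searched on both strands, and no matches overlapped in these windows.
Pf4: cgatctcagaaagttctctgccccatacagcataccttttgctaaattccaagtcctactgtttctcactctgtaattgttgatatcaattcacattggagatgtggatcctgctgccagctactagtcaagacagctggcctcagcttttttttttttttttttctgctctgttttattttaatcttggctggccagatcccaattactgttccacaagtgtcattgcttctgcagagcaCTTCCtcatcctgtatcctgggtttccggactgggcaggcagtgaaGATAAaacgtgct
Itga2b: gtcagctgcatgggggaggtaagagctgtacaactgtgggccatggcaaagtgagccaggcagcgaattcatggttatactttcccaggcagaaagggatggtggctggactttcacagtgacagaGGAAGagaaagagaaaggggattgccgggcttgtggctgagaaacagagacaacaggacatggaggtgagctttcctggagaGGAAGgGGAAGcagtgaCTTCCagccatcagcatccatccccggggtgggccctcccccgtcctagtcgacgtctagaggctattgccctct
Treml1: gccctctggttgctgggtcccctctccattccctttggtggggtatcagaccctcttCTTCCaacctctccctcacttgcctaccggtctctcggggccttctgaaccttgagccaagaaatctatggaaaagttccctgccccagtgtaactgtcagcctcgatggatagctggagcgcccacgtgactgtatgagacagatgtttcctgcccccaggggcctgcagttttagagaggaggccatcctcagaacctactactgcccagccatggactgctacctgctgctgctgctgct
GGAAG occurred in 6 of the 6 windows and in 71.4% of all 32851 promoter windows. GATAA occurred in 2 of 6, Pf4 and Gp9, and in 25.4% of all windows. TGACCA occurred in 1 of 6, Gp1bb, and in 13.6% of all windows. These matches describe letters in a short window and were not set against the intensities.

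Array medians lay between 29.6 and 31.6 intensity units, and the median over the table, 30.5, was taken as the background level. Of the 45101 probe sets, 25061 exceeded it on at least 2 arrays and were tested. Of the erythroid marker genes with a probe set of their own, 8 of 11 lay above it on all 10 arrays, among them Gata1, Klf1, Epor and Tfrc. Epb42 exceeded it on 3 arrays, and the probe sets of the globin gene Hba-a1 and of Slc4a1, band 3 of the red cell membrane, on none. Probe sets that list a second gene were not read here, so this does not settle whether alpha globin is transcribed. Of 6 tested Bcl11a probe sets, 1 was higher in each of FBB1.11, FBB1.10 and FBB1.5, and in FBB1.7 none was higher and 1 lower. The probe set that was higher averaged 63.7 in FBB1.7, 79.0 in FBB1.5, 199 in FBB1.10 and 213 in FBB1.11, against 37.8 in parental cells. The actin control's 3'/5' signal ratio, a sign of RNA quality, was highest in parental 2 (1.80) and FBB1.5 1 (1.47), against at most 1.22 on the other arrays. The labels do not state whether both arrays of a line are separate cultures, and p-values therefore cover only array-to-array spread, which may be technical. Signal from fewer cells of a type and from less RNA per cell cannot be told apart in these bulk samples.

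At least 1 probe set of each of the 9 genes exceeded the table median on some array. Of the 14 probe sets, 10 lay above it on at least 1 array, 6 on all 10, and 4 on none. Of all 45101 probe sets, 59.3% lay above it on at least 1 array and 41.8% on all 10. The 6 that lay above it throughout read Pf4, Itga2b, Treml1, 1 of 2 Gp1bb, 1 of 2 Thbs1 and 1 of 4 Rab27b probe sets. Against a stricter level, the 75th percentile of the table (102), 4 of the 14 probe sets reached it on at least 1 array and 3 on all 10, where 29.1% and 21.0% of all probe sets did. Those 3 read Pf4, Itga2b and Gp1bb, and the Rab27b probe set reached it on 9. The 10 probe sets above the median on at least 1 array are those that entered the tests.

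**Figure D1:**
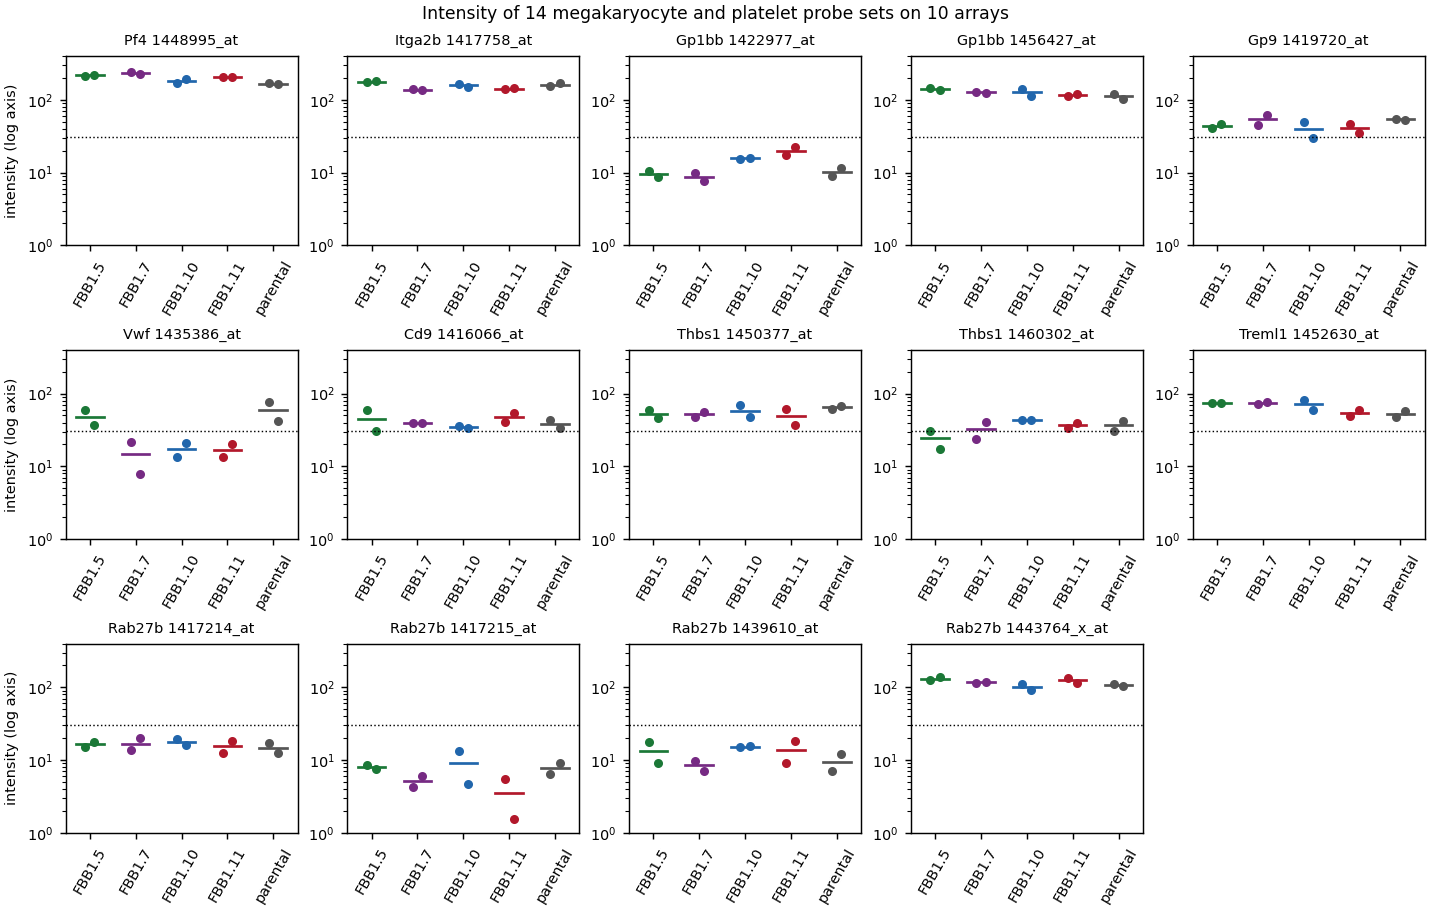
Intensity (log axis) of the 14 probe sets, with 1 point per array, a bar at the mean of each line (2 arrays) and a dotted line at the table median of 30.5. Vwf lies above the dotted line on the FBB1.5 and parental arrays and below it on the other 6, and 1 Gp1bb and 3 Rab27b probe sets lie below it on all 10.

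Among the proteins stored in alpha granules, Pf4 was higher in FBB1.7 than in the parental line and Vwf was lower. Pf4 encodes platelet factor 4, a chemokine released from platelets, on chromosome 5. Its probe set (1448995_at) read 241 and 224 on the FBB1.7 arrays, 214 and 223 in FBB1.5, 205 and 204 in FBB1.11, 169 and 193 in FBB1.10, and 168 and 168 in parental cells. All 8 tagged arrays thus lay above both parental arrays, FBB1.10 1 by the least. The mean was 233 ± 11.6 in FBB1.7 and 168 ± 0.0778 in parental cells (SD, n = 2 each), 1.39-fold higher. On the scale log2(intensity + 16), used for every log2 difference here, Pf4 rose in FBB1.7 by 0.43 ± 0.11 (SE, limma's adjusted p = 0.022). The log2 difference of Pf4 was 0.35 in FBB1.5 (adjusted p = 0.13), 0.26 in FBB1.11 (adjusted p = 0.37) and 0.09 in FBB1.10 (adjusted p = 0.75), all by limma. In order of their means the lines ran FBB1.7, FBB1.5, FBB1.11, FBB1.10 and parental. The arrays of FBB1.7 and FBB1.5 lay above those of FBB1.11, those of FBB1.11 above those of FBB1.10, and those of FBB1.10 above those of parental cells, by less than 1 intensity unit in the last case. The F test between the 4 subclones did not pass for Pf4 (adjusted p = 0.23).

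The call of Pf4 in FBB1.7 ended without parental 1, parental 2, FBB1.7 1 or FBB1.7 2, with adjusted p between 0.055 and 0.17 by limma. It also ended without parental 2 and FBB1.5 1 together (limma's adjusted p = 0.059), while the log2 difference stayed between 0.39 and 0.48 whichever array was left out.

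Vwf, von Willebrand factor, tethers platelets to damaged vessel walls and is made by megakaryocytes and endothelial cells. Its probe set (1435386_at, chromosome 6) read 13.5 and 20.7 in FBB1.10, 21.7 and 7.8 in FBB1.7, 13.5 and 20.4 in FBB1.11, 59.0 and 36.7 in FBB1.5, and 76.7 and 41.9 in parental cells. All 6 arrays of FBB1.7, FBB1.10 and FBB1.11 lay below the table median and below every array of FBB1.5 and parental cells, which overlap with each other. Vwf therefore entered the tests only through the FBB1.5 and parental arrays, where it is high. Vwf averaged 14.7 ± 9.82 in FBB1.7 and 59.3 ± 24.6 in parental cells (SD, n = 2 each). Since the lower group lies within the background, the fold is a bound against the table median, at least 1.86-fold lower in FBB1.7 (limma's adjusted p = 0.0096). The same bound of at least 1.86-fold was found for FBB1.10 (adjusted p = 0.053) and FBB1.11 (adjusted p = 0.11), which missed limma's threshold. It bounds only the background side. The parental arrays, 76.7 and 41.9, enter it at their log2 mean, so their spread is not covered. In FBB1.5, with 47.9 ± 15.8 against 59.3 ± 24.6 in parental cells (SD, n = 2 each), the log2 difference was -0.22 (limma's adjusted p = 0.78). The F test between the subclones gave Vwf an adjusted p of 0.072, which also misses the threshold, so a difference of FBB1.5 from the other subclones is not shown.

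In FBB1.7 the call of Vwf ended without parental 1 (limma's adjusted p = 0.081) or FBB1.7 2 (adjusted p = 0.11). In FBB1.10 Vwf passed without parental 2 (adjusted p = 0.036) or FBB1.7 2 (adjusted p = 0.047), by limma. Parental 1 has the highest Vwf value of all arrays and FBB1.7 2 the lowest. Without parental 2 and FBB1.5 1, the arrays with the highest actin ratios, Vwf was again lower in FBB1.7, FBB1.10 and FBB1.11. That pair was chosen after seeing the data. It leaves parental 1, with its highest Vwf value, as the only parental array. Vwf had also entered the tests only through arrays where it is high, so this adds no separate evidence. The summed intensity of 12 mast cell and basophil genes was 2271 and 2816 in FBB1.10, 1067 and 1185 in FBB1.7, 1902 and 1908 in FBB1.11, 5208 and 6615 in FBB1.5, and 5725 and 6881 in parental cells. Of these 12 genes, 5 never exceeded the table median, including the IgE receptor genes Fcer1a and Ms4a2, and 4 exceeded it on every array. Of the 7 tested, 4 were lower in FBB1.7, 4 in FBB1.10, 3 in FBB1.11 and 1 in FBB1.5. Of all 12502 tested genes, 6.39% were lower in FBB1.7, 0.872% in FBB1.10, 0.12% in FBB1.11 and 0.992% in FBB1.5. The summed intensity of 14 endothelial genes was between 1178 and 1195 in FBB1.10, 1142 and 1187 in FBB1.7, 1167 and 1202 in FBB1.11, 1064 and 1222 in FBB1.5, and 937 and 1154 in parental cells. Of these 14 genes, 6 never exceeded the table median, including Cdh5, Tie1 and Emcn, and 7 exceeded it on every array. The part of either cell type's genes in the Vwf values was not tested.

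**Figure D2:**
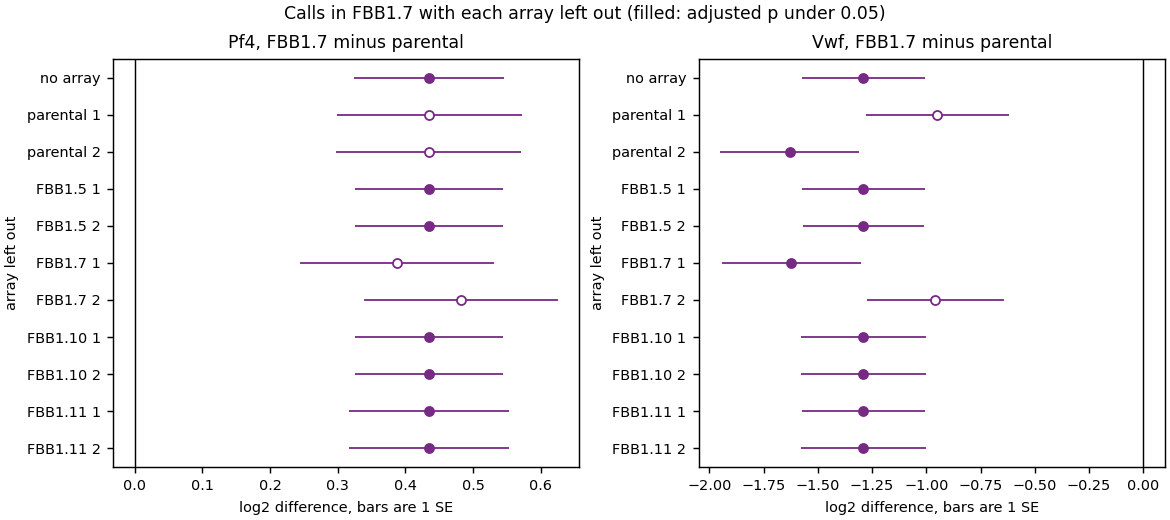
Log2 difference (FBB1.7 minus parental) of Pf4 and Vwf with no array or each of the 10 arrays left out in turn, with bars of 1 SE and filled points where limma's adjusted p is under 0.05. Pf4 keeps its call in 6 of the 10 cases and Vwf in 8, and the plotted size for Vwf rests on FBB1.7 values at background.

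Thbs1, thrombospondin 1, is an adhesive glycoprotein of alpha granules that many other cells also make, encoded on chromosome 2. Its brighter probe set (1450377_at) read 46.9 and 56.5 in FBB1.7, 59.7 and 46.7 in FBB1.5, 69.0 and 48.0 in FBB1.10, 60.5 and 36.9 in FBB1.11, and 61.7 and 67.9 in parental cells. FBB1.5, FBB1.7 and FBB1.11 lay below both parental arrays and FBB1.10 overlapped them, with log2 differences from -0.34 to -0.13, none of which passed (limma's lowest adjusted p = 0.46). The second Thbs1 probe set (1460302_at), between 17.4 and 43.6, lay above the table median on 8 of 10 arrays and passed in no subclone. On this second probe set FBB1.10 averaged 43.2 and parental cells 36.7. Another one, shared in the annotation with Pald1, stayed below the table median throughout, between 1.74 and 7.44, and is not assigned to either gene.

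Among the surface receptors, no probe set differed from parental cells at the threshold in any subclone. Itga2b encodes integrin alpha IIb (CD41), the platelet fibrinogen receptor subunit and an early marker of megakaryocytes and of blood progenitors. Its probe set (1417758_at, chromosome 11) read 141 and 136 in FBB1.7, 174 and 183 in FBB1.5, 166 and 152 in FBB1.10, 141 and 145 in FBB1.11, and 156 and 168 in parental cells. Both FBB1.5 arrays lay above both parental arrays, both arrays of FBB1.7 and of FBB1.11 lay below them, and FBB1.10 overlapped. The log2 differences were -0.20 in FBB1.7, 0.13 in FBB1.5, -0.02 in FBB1.10 and -0.16 in FBB1.11, each with an SE of 0.11 (limma's adjusted p 0.30 to 0.96). The F test between subclones gave Itga2b an adjusted p of 0.22. Itgb3, the beta subunit that pairs with it on platelets, exceeded the table median on only 2 of the 10 arrays.

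Gp1bb and Gp9 encode subunits of the receptor for von Willebrand factor, the GPIb-IX-V complex. The brighter Gp1bb probe set (1456427_at, chromosome 16) read 130 and 125 in FBB1.7, 146 and 138 in FBB1.5, 139 and 115 in FBB1.10, 112 and 119 in FBB1.11, and 122 and 103 in parental cells. FBB1.5 and FBB1.7 lay above both parental arrays and FBB1.10 and FBB1.11 overlapped them, with the furthest log2 difference 0.30 ± 0.13 in FBB1.5 (SE, limma's adjusted p = 0.27). A second Gp1bb probe set (1422977_at) stayed below the table median throughout, between 7.75 and 22.4, so the probe sets of this gene disagree on whether it is detected. Another one, shared in the annotation with the neighbouring Septin5, read between 41.5 and 129 and is not assigned to either gene. Gp9 (1419720_at, chromosome 6) read 44.9 and 62.6 in FBB1.7, 41.6 and 46.5 in FBB1.5, 49.0 and 30.1 in FBB1.10, 46.3 and 35.3 in FBB1.11, and 54.6 and 53.6 in parental cells. All but 1 tagged array lay below both parental arrays, the exception being FBB1.7 2. The log2 difference of Gp9 was -0.36 ± 0.19 in FBB1.10 (SE, limma's adjusted p = 0.39) and -0.31 ± 0.19 in FBB1.11 (SE, adjusted p = 0.56). Gp5, a further subunit of that complex, lay above the table median on all 10 arrays and passed in no subclone.

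Treml1 encodes TLT-1, a receptor held in alpha granules of megakaryocytes and platelets and moved to the surface on activation. Its probe set (1452630_at, chromosome 17) read 72.1 and 77.2 in FBB1.7, 74.4 and 74.6 in FBB1.5, 82.6 and 59.97 in FBB1.10, 49.4 and 59.97 in FBB1.11, and 48.0 and 57.6 in parental cells. FBB1.5, FBB1.7 and FBB1.10 lay above both parental arrays and FBB1.11 overlapped them. The log2 difference of Treml1 was 0.40 ± 0.15 both in FBB1.7 and FBB1.5, 0.33 ± 0.15 in FBB1.10 and 0.04 ± 0.15 in FBB1.11 (SE), and none passed (limma's adjusted p = 0.12 in FBB1.7, 0.23 in FBB1.5, 0.31 in FBB1.10 and 0.95 in FBB1.11). Cd9 encodes a tetraspanin of platelets and of many other cell types. Its probe set (1416066_at, chromosome 6) read 38.9 and 40.0 in FBB1.7, 60.1 and 30.2 in FBB1.5, 35.8 and 34.0 in FBB1.10, 40.6 and 54.6 in FBB1.11, and 43.6 and 33.8 in parental cells. Every subclone overlapped parental cells, and the widest spread within a line was that of the FBB1.5 pair (SD 21.1).

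Rab27b encodes a small GTPase that docks granules for secretion in platelets. Of its 4 probe sets, 3 (1417214_at, 1417215_at and 1439610_at) stayed below the table median on all 10 arrays, with values between 1.54 and 19.9. The remaining one (1443764_x_at) read 115 and 120 in FBB1.7, 126 and 138 in FBB1.5, 112 and 92.8 in FBB1.10, 136 and 113 in FBB1.11, and 111 and 104 in parental cells. Its _x_at suffix marks, in the array maker's naming, a probe set with probes that can also match other transcripts. With 3 of 4 probe sets below background, the array does not settle whether Rab27b is transcribed in these lines. The bright probe set passed in no subclone, with its furthest log2 difference 0.26 ± 0.13 in FBB1.5 (SE, limma's adjusted p = 0.38).

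**Figure D3:**
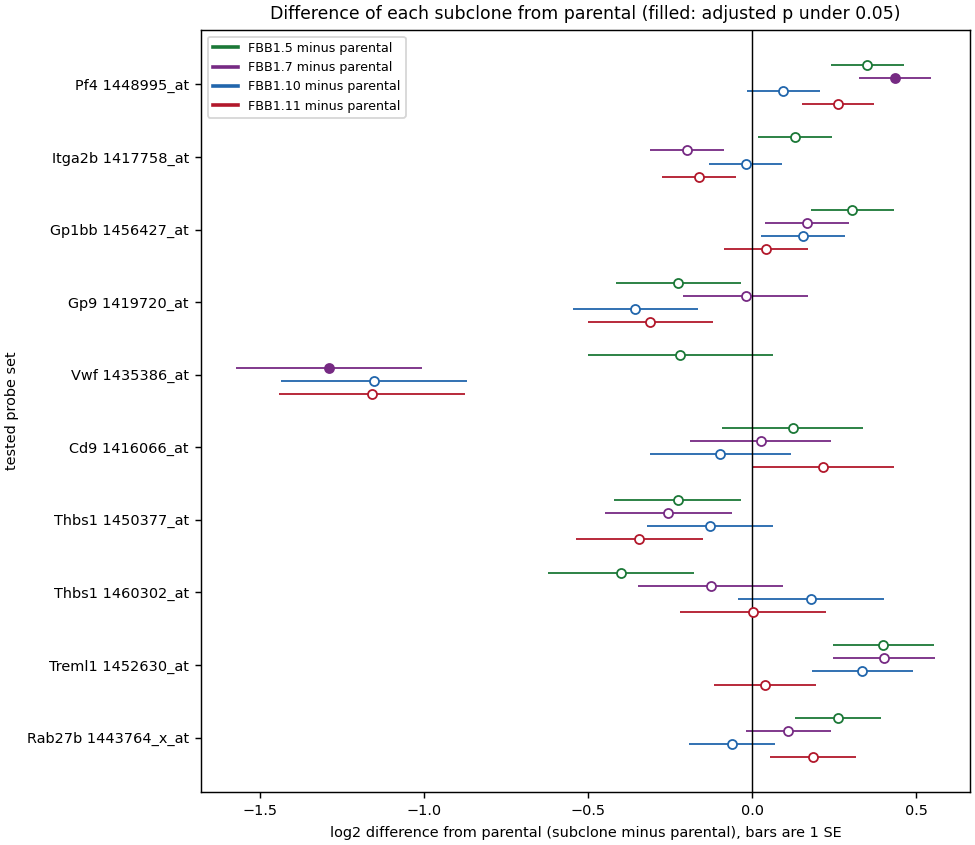
Log2 difference of each subclone from parental (subclone minus parental, log2(intensity + 16)) for the 10 tested probe sets, with bars of 1 SE and filled points where limma's adjusted p is under 0.05. Pf4 (0.43) and Vwf, both in FBB1.7, are the filled points. The Vwf points of FBB1.7, FBB1.10 and FBB1.11 rest on values at background. For them only the bound of at least 1.86-fold is given, taken at the parental log2 mean.

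Counted over the 10 tested member probe sets, 2 passed in FBB1.7, 1 higher and 1 lower, where 10.1% of all tested probe sets passed (4.55% higher and 5.5% lower). The lower one, Vwf, had entered the tests only through arrays where it is high. None passed in FBB1.5, where 2.02% of all tested probe sets did (1.29% higher and 0.734% lower). None passed in FBB1.10 against 1.8% of all (1.08% higher and 0.718% lower), and none in FBB1.11 against 0.188% (0.0758% higher and 0.112% lower). At an unadjusted p under 0.05 limma gave 3 members each in FBB1.7 and FBB1.5 and 2 each in FBB1.11 and FBB1.10. Of all 25061 tested probe sets, it gave 6053 in FBB1.7, 3709 in FBB1.5, 2956 in FBB1.11 and 3866 in FBB1.10. Both arrays of FBB1.5 lay above both parental arrays for 5 members and below them for 2, against 22.8% and 17.8% of all tested probe sets. The counts were 4 above and 3 below for FBB1.7 (24.8% and 26.4% of all), 3 and 2 for FBB1.10 (23.9% and 20.6%), and 2 and 4 for FBB1.11 (20.6% and 20.6%). The median log2 difference of the members was 0.0028 in FBB1.7, 0.13 in FBB1.5, -0.04 in FBB1.10 and 0.02 in FBB1.11, and over all tested probe sets it was at most 0.02 in any of them. These 4 comparisons share the parental arrays.

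With all 8 tagged arrays set against parental cells and lines treated as random blocks, 0 of the 10 members passed limma's test, nor did any of the 25061 probe sets (0% called). At an unadjusted p under 0.05 there were 2 members, Pf4 (log2 difference 0.28 ± 0.12, SE, limma's adjusted p = 0.53) and Vwf (adjusted p = 0.46), and 2190 of all probe sets. No size is given for Vwf here, since 6 of its 8 tagged arrays lie at background. Pf4 was the only member with every tagged array on 1 side of both parental arrays, above them, as were 5.22% of all tested probe sets, and none lay wholly below them, as 4.24% of all did. In a fit of 5 line means, which takes the spread only from arrays of one line, 1 member (Vwf, limma's adjusted p = 0.030) and 887 probe sets (3.54%, with 1.98% higher and 1.56% lower) passed. Vwf was the lower member, with the limit that it entered the tests only through the FBB1.5 and parental arrays. Between the 4 subclones, no member passed limma's F test, where 7.24% of all tested probe sets did. At an unadjusted p under 0.05 in that test there were 3 of the 10 members and 5148 of all 25061 probe sets.

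The wider pathway was read through 5 lists of other genes, with the brightest tested probe set of each gene. In FBB1.7, transcripts of 5 of 24 measured megakaryocyte transcription factors were lower and none higher, where 6.39% of all 12502 tested genes were lower and 4.29% higher. The 5 were Gata2, a progenitor factor, Srf, which drives cytoskeletal genes, Zfpm1, the cofactor FOG1 that GATA1 needs in both lineages, Etv6, an ETS repressor, and Tal1, a core factor of both lineages. Gata2 read 140 ± 13.6 in FBB1.7 and 264 ± 5.04 in parental cells (SD, n = 2 each), a log2 difference of -0.85 (limma's adjusted p = 0.00048). Srf read 204 ± 12.97 in FBB1.7 and 362 ± 25.9 in parental cells (limma's adjusted p = 0.001). Zfpm1 read 759 ± 11.6 in FBB1.7 and 1041 ± 81.9 in parental cells (limma's adjusted p = 0.004). Etv6 read 76.5 ± 9.18 in FBB1.7 and 117 ± 3.10 in parental cells (limma's adjusted p = 0.012). Tal1 read 325 ± 9.53 in FBB1.7 and 430.0 ± 23.6 in parental cells (limma's adjusted p = 0.045). The count of lower factors was 3 to 5 whichever array was left out. Without parental 2 there were 3 lower and 1 higher, and without parental 2 and FBB1.5 1 together 4 lower and 1 higher. The higher one was Lmo2, a partner of TAL1, with limma's adjusted p of 0.14 in FBB1.7 over all arrays. In FBB1.5 the log2 difference of Lmo2 was -0.34 over all arrays (limma's adjusted p = 0.12). It was -0.49 there without parental 1 and -0.20 without parental 2. Tal1 passed in only 3 of the 10 cases with an array left out and Etv6 in 8. Gata2 was lower in FBB1.10 as well (limma's adjusted p = 0.023), a call lost in 3 of 10 cases with an array left out, with no intensity filter (adjusted p = 0.058) and with no variance trend (adjusted p = 0.17). In FBB1.11 the log2 difference of Gata2 was -0.63, beside -0.60 in FBB1.10, and just missed the threshold (limma's adjusted p = 0.053). It passed there with 64 added (adjusted p = 0.037), with the replicate block (adjusted p = 0.043), and without either FBB1.5 array, by limma. It did not pass there with 1 added (limma's adjusted p = 0.067), no intensity filter (adjusted p = 0.17) or no variance trend (adjusted p = 0.24). Without FBB1.11 1 the log2 difference was -0.57, and without FBB1.11 2 it was -0.69. No factor passed in FBB1.5, where 1.38% of all tested genes were higher, or in FBB1.11 (0.064% higher and 0.12% lower), and none was higher in FBB1.10 (0.936%). Gata1, the brightest of the list, read between 2054 and 2350.5 as a line mean and passed in no subclone, and neither did Ldb1, the adaptor of the GATA1 and TAL1 complex, at 1071 to 1274. Many of these factors also serve red cell precursors, and 22 of the 24 lay above the table median on all 10 arrays.

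Of alpha granule cargo, 9 of 18 genes with a probe set of their own never exceeded the table median, among them Ppbp, the neighbour of Pf4 in the same chemokine cluster, and 8 were tested. Srgn, serglycin, the proteoglycan core of granules in platelets, mast cells and other blood cells, was lower in 3 subclones. It read 800.5 ± 85.3 in FBB1.7, 918 ± 165 in FBB1.5, 938 ± 28.8 in FBB1.10, 1364 ± 9.95 in FBB1.11, and 1365 ± 68.4 in parental cells (SD, n = 2 each). Limma's adjusted p for Srgn was 0.00049 in FBB1.7, 0.012 in FBB1.5, 0.023 in FBB1.10 and 0.999 in FBB1.11. Srgn, with each array left out in turn, passed in 10 of 10 cases in FBB1.7, 9 in FBB1.5 and 8 in FBB1.10. The FBB1.5 and FBB1.10 calls ended with no intensity filter (limma's adjusted p = 0.0502 and 0.076) and with no variance trend (adjusted p = 0.13 and 0.19), and the FBB1.7 call did not. Sparc, a matrix protein, came nearest after it, with 121 in FBB1.10 against 172 in parental cells (limma's adjusted p = 0.070). The log2 difference of Sparc there, -0.46, was -0.53 without parental 1 and -0.38 without parental 2. Apart from Srgn no cargo gene passed in any subclone, where 0.992% of all tested genes were lower in FBB1.5 and 0.872% in FBB1.10.

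Of genes of granule formation and secretion, 1 of 16 passed, in FBB1.7, where 6.39% of all tested genes were lower. It was Ap3b1, a subunit of the adaptor AP-3 needed for dense granules. It read 652 ± 51.3 in FBB1.7 and 882 ± 47.0 in parental cells (SD, n = 2 each, limma's adjusted p = 0.0061). Snap23, a SNARE of platelet granule release, read 266 ± 57.6 in FBB1.10 against 175 ± 21.3 in parental cells and missed the threshold (limma's adjusted p = 0.057). It passed with quantile normalization (adjusted p = 0.049) or the replicate block (adjusted p = 0.032), by limma. It did not pass with no intensity filter (limma's adjusted p = 0.14) or no variance trend (adjusted p = 0.20). Its log2 difference in FBB1.10, 0.55, was 0.66 without parental 1 and 0.44 without parental 2. It was 0.34 without FBB1.10 1 and 0.76 without FBB1.10 2. Unc13d, which primes granules together with RAB27 proteins, read 220.1 in FBB1.7 against 278 in parental cells and also missed the threshold (limma's adjusted p = 0.076). Of platelet receptors and adhesion genes, 1 of 15 passed, against the same 6.39%. It was Ptprj, a receptor phosphatase that regulates Src kinases in platelets, with 88.6 ± 8.71 in FBB1.7 and 136 ± 9.34 in parental cells (limma's adjusted p = 0.021). Ptprj lost its call in 3 of 10 cases with an array left out and Ap3b1 in 1. Both ended with no variance trend (limma's adjusted p = 0.054 for Ptprj and 0.053 for Ap3b1), and Ptprj with no intensity filter (adjusted p = 0.053). The brightest receptor genes, Tbxa2r for thromboxane and F2r for thrombin, passed in no subclone. Clec1b, the podoplanin receptor CLEC-2, read 78.7 in FBB1.7 and 75.4 in FBB1.5, against 57.9 in parental cells. P2rx1, an ATP-gated channel, read 98.8 in FBB1.7 and 109.6 in FBB1.5, against 76.0 in parental cells. None of these passed (limma's lowest adjusted p = 0.14), nor did F2rl3, a thrombin receptor, or Stxbp2 and Rasgrp2 of the granule and signalling lists. Of 22 receptor genes with a probe set of their own, 7 never exceeded the table median. None of the 18 cytoskeleton and signalling genes passed against parental cells, among them Fermt3, the integrin activator kindlin-3, at 1179 to 1376 in the subclones and 1418 in parental cells. Prkcq, a protein kinase C of platelets and T cells, just missed the threshold in FBB1.7 (limma's adjusted p = 0.056) and FBB1.10 (adjusted p = 0.052). With the replicate block it passed as higher in both (limma's adjusted p = 0.048 in FBB1.7 and 0.040 in FBB1.10). It passed in neither with no intensity filter (limma's adjusted p = 0.10 and 0.12) or no variance trend (adjusted p = 0.092 and 0.17). Its log2 difference in FBB1.7 was 0.30 without FBB1.7 1 and 0.51 without FBB1.7 2. In FBB1.10 it was 0.46 without FBB1.10 1 and 0.58 without FBB1.10 2. Between the subclones, 8.06% of all tested genes passed limma's F test, and of these lists 5 cytoskeleton and signalling genes, 4 transcription factors, 3 cargo genes and 1 granule formation gene did. Over the brightest probe set of each gene, the median log2 difference in FBB1.7 was -0.15 for transcription factors, -0.18 for cargo, -0.11 for granule formation, -0.07 for receptors and -0.025 for cytoskeleton and signalling, beside -0.015 over all tested genes.

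**Figure D4:**
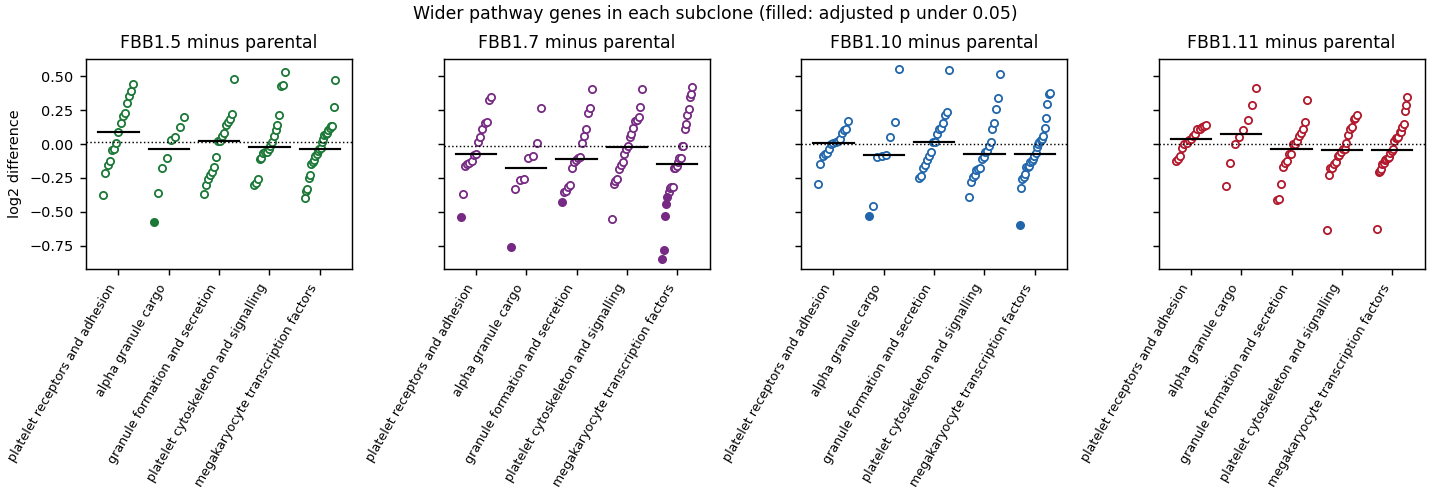
Log2 difference of each tested gene of the 5 wider pathway lists in each subclone against parental, with a bar at the list median, a dotted line at the median of all tested genes, and filled points where limma's adjusted p is under 0.05. FBB1.7 holds 8 of the 11 filled points, 5 of them transcription factors.

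The tested genes whose profiles of 5 line means lay nearest to those of the 2 called members were found by root mean square distance on the log2 scale after centring. For Pf4 they were D8Ertd738e (0.026), Gria2 (0.0295), a glutamate receptor subunit, and Rdh9 (0.0304), a retinol dehydrogenase. Gria2 exceeded the table median on only 3 of 10 arrays. For Vwf they were Trim2 (0.13), a ubiquitin ligase, H1f2 (0.14), a linker histone, and Plac8 (0.15). Trim2 read 12.3 in FBB1.7, 12.3 in FBB1.10, 12.15 in FBB1.11, 48.3 in FBB1.5 and 41.2 in parental cells, so like Vwf it was above the table median on 4 arrays. For both genes 3 of the 5 line means lie at background, so these distances carry no order.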

How the data were processed

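Total RNA of 10 MEL cell samples was labelled, per the labels' protocols, by oligo-dT primed cDNA synthesis and in vitro transcription with biotinylated nucleotides, and stained with a streptavidin dye. The deposited values are linear intensity values per probe set, and the authors' summary method and any scaling are not given in the sources used here. The sample titles and source names gave the groups. The members and lists were chosen with earlier results of these data known. Values were taken as log2(intensity + 16), which shrinks fold changes of dim genes. Array medians differed by 0.06 on this scale, under the limit of 0.2, so no normalization was added. The 64 control probe sets were left out, and probe sets entered the tests with at least 2 arrays over the table median. Gene symbols come from the platform annotation, and lists were matched through RefSeq gene identifiers, with 2 list genes unmatched. No 2 arrays held identical values.

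Subclones were set against parental, and compared among themselves by limma's F test, in a limma fit of 5 line means with an intensity trend, Benjamini-Hochberg adjusted over all 25061 tested probe sets at 0.05. Tagged against parental used the line as a random block (consensus correlation 0.211). A fold against a line whose arrays lie at or below the table median is a bound, with those arrays raised to that median. The rule named every member, from each list the 4 genes with the smallest p over the subclones and the 2 brightest, and for each called member the 3 nearest profiles. Tal1, Lmo2, Itgb3, Gp5, Ppbp and genes of the cell type lists were named after their values were seen. On simulated data for FBB1.5 against parental with 25061 probe sets, 94 of 100 changes of 1 on the log2 scale and 49 of 100 of 0.5 were recovered, with 9 false calls. The simulated noise was normal, with a spread set by mean intensity alone and no variation among clones. These rates therefore hold for that simpler setting only. Alternatives, run for the members and for the list genes, covered the pseudocount, normalization, filter, variance trend, replicate block, line treatment, background level and arrays left out. Used were R 4.3.3, limma 3.58.1, statmod 1.5.0, Python 3.11.15 and matplotlib 3.10.9. The number of arrays limits the precision.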

Additional observations from a re-analysis of the deposited data

Results flagged for a closer look

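No member differed between the subclones at the threshold of limma's F test. Of the 81 tested genes of the wider lists, 13 passed it, and 8.06% of all tested genes did. The 11 given here are those that the text names, most of them for a small p, so their number is no result. Among granule genes these were Srgn (adjusted p = 0.00224), Tgfb1, a stored growth factor (adjusted p = 0.0104), Igf1 (adjusted p = 0.0292) and Rab27a, the paralogue of Rab27b (adjusted p = 0.0200). Tgfb1 read 394 ± 39.3 in FBB1.7, 520.0 ± 3.30 in FBB1.5, 449 ± 10.9 in FBB1.10, 585 ± 28.3 in FBB1.11 and 476 ± 30.2 in parental cells (SD, 2 arrays each). Rab27a read 72.6 ± 7.74 in FBB1.7 and 39.2 ± 2.66 in FBB1.11, with parental cells between them at 57.4 ± 4.79. Igf1 exceeded the table median on only 6 of the 10 arrays. Its mean lay below that median in FBB1.7 (24.6) and FBB1.5 (30.03), and above it in FBB1.10 (59.3) and FBB1.11 (52.4). The F test call of Igf1 therefore rests partly on values at background, and no size is given for it. Among cytoskeleton and signalling genes they were Plek, the platelet kinase substrate pleckstrin (adjusted p = 0.00225), Prkcq (adjusted p = 0.0355), Vcl, vinculin (adjusted p = 0.00347), and Myl9 (adjusted p = 0.0208). Plek read 370 ± 9.57 in FBB1.7 and 189 ± 9.89 in FBB1.11, against 303 ± 1.86 in parental cells. The highest Plek mean was that of FBB1.10, 398 with an SD of 127, so its arrays differed widely. The log2 difference of Plek between FBB1.10 and parental cells was 0.02 without FBB1.10 1 and 0.66 without FBB1.10 2. Vcl read 590 ± 39.3 in FBB1.5 and 362 ± 24.3 in FBB1.7, against 434 ± 19.3 in parental cells. Among transcription factors they were Srf (adjusted p = 0.0076), Zfpm1 (adjusted p = 0.00195) and Etv6 (adjusted p = 0.0253), each lowest in FBB1.7.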

How the results depend on the processing

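Of the member calls, that of Pf4 in FBB1.7 ended without the variance trend (limma's adjusted p = 0.051) and that of Vwf held there, so 1 member remained called, as it did with only probe sets above the table median on all 10 arrays, where Vwf was not tested. With an array left out, 0 to 2 members passed in FBB1.7, 0 to 1 in FBB1.10 and 0 to 1 between the subclones, where Vwf passed without either parental array. Vwf passed in FBB1.10 with 64 added (1 member, adjusted p = 0.038), with each array centred on its median (1 member, adjusted p = 0.043) and with the replicate block (1 member, adjusted p = 0.044). Without parental 2 and FBB1.5 1 together, chosen after seeing the data, 1 member, Vwf, passed in each of FBB1.7, FBB1.10 and FBB1.11, with 157 probe sets called in FBB1.11 and 3 in tagged against parental. Vwf had entered the tests only through the FBB1.5 and parental arrays, where it is high, and both its FBB1.10 arrays lie below the table median. Its calls under these settings therefore add no separate evidence. At the 75th percentile 4 members lay above the background level.

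Over all probe sets, no intensity filter gave 1628 calls in FBB1.7, 201 in FBB1.5, 119 in FBB1.10, 16 in FBB1.11, 1 in tagged against parental and 985 between subclones. No variance trend gave 1187 calls in FBB1.7 (2519 as reported), 22 in FBB1.5 (507), 1 in FBB1.10 (450), 8 in FBB1.11 (47) and 483 between subclones (1814). Adding 1 gave 31 calls in FBB1.11. Tagged against parental gave 887 calls (1 member, Vwf) with 5 line means, 3 with no line term and 31 without FBB1.5. Leaving out an array gave 859 to 2637 calls in FBB1.7, 184 to 810 in FBB1.5, 108 to 1194 in FBB1.10, 10 to 435 in FBB1.11, 0 to 128 in tagged against parental and 848 to 2402 between subclones. The highest counts in FBB1.5, FBB1.10, FBB1.11 and tagged against parental came without parental 1, and the lowest in each subclone came without an array of its own. The cause was not tested.

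Same-numbered arrays did not deviate together (r between lines from -0.16 to 0.18 across probe sets), so they share only a number, and the replicate block moved the FBB1.11 count to 121 and left the other counts within 1.5 times. The log2 difference of Cd9 in tagged against parental, 0.07, ranged from -0.063 to 0.20 with an array left out and was -0.13 without parental 2 and FBB1.5 1. That of the second Thbs1 probe set, -0.09, ranged from -0.25 to 0.074 and was 0.017 without FBB1.5 and 0.059 without parental 2 and FBB1.5 1. Vwf in FBB1.5 ranged from -0.56 to 0.12 and Treml1 in FBB1.11 from -0.070 to 0.15, and none of these passed. In all, of 470 recomputed member values 9 turned sign, 8 lost and 8 gained a call. Among the list genes, quantile normalization also brought in Fermt3 (adjusted p = 0.039) and Vcl (adjusted p = 0.027) in FBB1.5, and leaving out either FBB1.10 array brought in Plek in FBB1.11 (adjusted p = 0.029 and 0.027), by limma.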
